A study of Homo sapiens with 18 samples.

Results

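The 10 genes described here encode proteins that the liver makes in large amounts and releases into blood plasma. AZGP1, ALB, TTR, TF, APOA1, APOA2, APOE, APOC1, SERPINA1 and SERPINA3 were taken from the deposited gene table by their symbols, as 10 of its 26475 genes. The question was whether AZGP1, which the study singled out after EHMT2 inhibition, belonged to a wider change of liver-type secreted proteins. AZGP1 and SERPINA1 had been chosen by the study from these same libraries because they were higher with both inhibitors in both lines, and ALB and APOA2 were selected on their low values with A366 in MP41. Which values chose the other 6 genes is not recorded. The values of all 10 with an inhibitor against DMSO and between the inhibitors are therefore a description. They are given with standard errors and without p-values, and counts of members past the threshold stand beside those of all genes with nothing read from them. The lines' difference with DMSO and the wider gene lists were not used in the recorded choice and were tested. The lists were, however, chosen with earlier results of these data known. The lines' difference also shares its DMSO libraries with the contrasts that selected members.

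Gene expression was measured by RNA-seq in Mel92.1 and MP41, both established human cell lines of uveal melanoma, a tumor of the pigment cells of the eye. Each line was treated with DMSO (the solvent control), 1 μM UNC0642 or 1 μM A366 for 48 h, with 3 biological replicates per group and 18 libraries in all. UNC0642 and A366 are inhibitors of EHMT2 (G9a) and of its partner EHMT1, the enzymes that mono- and dimethylate lysine 9 of histone H3. The groups carried no genetic change beyond those of the lines, and each line stands for 1 tumor. The study's methods give MP41 a medium with more serum than that of Mel92.1, so serum and line cannot be told apart in any difference between the lines. The labels of 4 libraries needed care. Those labelled A366 replicates 2 and 3 of each line expressed the genes of the other line. They held 93.6% to 114% of the DMSO level of the genes of that other line, and only 0.0245% to 0.0669% of the level of the genes of the line on the label, whereas the other 14 libraries held 0.0121% to 0.241% of the other line's genes. The study's own table of fold changes heads these 4 columns with the other line, so they were exchanged here, and A366 values are also given as labelled and without the 4. Below, "Mel92.1 A366 replicate 2" is the library labelled MP41 A366 replicate 2, and so on. Library totals ranged from 23601156 to 62941462 counts with a median of 41955693, the lowest being Mel92.1 UNC0642 replicate 1. Levels are given as CPM, counts scaled to the library total with TMM factors, which correct for a few genes taking much of a library. Mel92.1 UNC0642 replicate 1 also had the lowest TMM factor (0.698) and held only 65.4% of the DMSO level of the Mel92.1 genes. Without it, the genes called in Mel92.1 went from 100 to 183 with UNC0642 and from 31 to 147 with A366.

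Albumin (ALB) is the main carrier of plasma, transthyretin (TTR) carries thyroxine and the retinol-binding protein, and transferrin (TF) carries iron to its receptor TFRC. Apolipoproteins A1 and A2 are the structural proteins of high-density lipoprotein. Apolipoprotein E is the ligand by which lipoprotein remnants are taken up, and it is also made by macrophages, glia and pigment cells. Apolipoprotein C1 is encoded next to it. SERPINA1 (alpha-1-antitrypsin) inhibits neutrophil elastase, and SERPINA3 (alpha-1-antichymotrypsin) inhibits cathepsin G and is raised by inflammation. AZGP1, zinc-alpha-2-glycoprotein, is a soluble relative of MHC class I molecules that promotes the breakdown of stored lipid and is secreted by liver and by glandular epithelia. Hepatocytes transcribe this program under factors such as HNF4A and the CEBP family.

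In GRCh38, GENCODE v29 places AZGP1 on chromosome 7 (99966720 to 99976157, minus strand), ALB on chromosome 4 (73397114 to 73421412, plus strand) and APOA2 on chromosome 1 (161222292 to 161223631, minus strand). The DNA before the RefSeq start of these 3 genes is shown because AZGP1 was the one member past the threshold with both inhibitors in both lines, and ALB and APOA2 had the most negative log2 fold changes with A366 in MP41. The 3 genes had been selected on these same contrasts, so the values serve only to choose what is shown. The stretches come from RefSeq (GRCh38.p14), 5′ to 3′ on the gene's strand, and leave out the bases that GENCODE annotates as exon at that start. The ALB stretch lies within the span of a longer GENCODE model of the gene. Capitals mark, on either strand, the letters CCAAT, the letters GTTAAT and the CEBP pattern TTGCNNAA.
AZGP1 (chr7:99976158-99976281): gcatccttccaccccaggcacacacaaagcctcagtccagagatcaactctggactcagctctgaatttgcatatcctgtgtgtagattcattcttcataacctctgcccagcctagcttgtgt
ALB (chr4:73404037-73404238): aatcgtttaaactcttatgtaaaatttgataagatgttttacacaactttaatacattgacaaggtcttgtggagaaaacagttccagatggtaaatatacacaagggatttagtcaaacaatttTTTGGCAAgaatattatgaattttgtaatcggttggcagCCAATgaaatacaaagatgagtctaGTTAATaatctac
APOA2 (chr1:161223632-161223878): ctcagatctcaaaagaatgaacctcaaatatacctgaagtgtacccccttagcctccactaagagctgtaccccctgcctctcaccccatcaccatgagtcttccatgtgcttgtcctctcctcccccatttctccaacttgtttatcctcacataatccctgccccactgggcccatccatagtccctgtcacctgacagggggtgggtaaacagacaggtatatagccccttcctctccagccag

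Of these 3, ALB alone held the CEBP pattern (position -125 from its RefSeq start, reverse strand) and GTTAAT (-61), with CCAAT at -86 and, in the part not printed, at -44 on the reverse strand. Among all 35116 such stretches of 250 bases, 9.05% held the CEBP pattern, 6.23% held GTTAAT and 32% held CCAAT. In AZGP1 the last of these was met at -79 on the reverse strand, in the part not printed. TATAAA, held by 10.7% of all stretches, and the MITF E box CACGTG, held by 6.34%, were met in none of the 8 members with a sequence. The 250 bases of AZGP1, ALB and APOA2 contained 1, 3 and 0 CpG pairs, against a median of 11 for all stretches. A match of letters is a description and says nothing of binding.

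With DMSO, APOE was higher in Mel92.1 and the other 9 members were lower there. In the fit of all 18 libraries (edgeR quasi-likelihood test, Benjamini-Hochberg adjustment over 15799 genes), 69.4% of all genes tested passed the threshold of adjusted p under 0.05. All 10 members did too, but SERPINA3, TF, ALB, TTR, APOA1 and APOA2 passed the count filter only through MP41, so that their difference was fixed by the filter and the count of 10 is not comparable with that share. APOE, AZGP1, SERPINA1 and APOC1 passed the filter in Mel92.1 as well. APOE was the highest of the members in both lines. It stood at 780.1, 1000.9 and 1063.8 CPM in Mel92.1 and at 209.6, 240.8 and 202.2 CPM in MP41, a log2 difference of 2.12 (SE 0.17, adjusted p = 3.52e-09 by edgeR). AZGP1 was detected in both lines, at 0.88 ± 0.289 CPM (SD, n = 3) in Mel92.1 and 2.78 ± 0.268 CPM (SD, n = 3) in MP41, a log2 difference of -1.67 (SE 0.27, adjusted p = 3.05e-05 by edgeR). SERPINA1 differed by -1.06 (SE 0.35) and APOC1 by -0.58 (SE 0.15) on the same scale. The libraries of the lines did not overlap for any of these 4 genes. The share of all genes without overlap between the lines was not computed, so nothing is read from this.

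The remaining 6 members were near the limit of detection in Mel92.1. SERPINA3 had 2677, 2595 and 2784 counts in the MP41 DMSO libraries and 1 count in all 3 Mel92.1 DMSO libraries together, a ratio of counts per total of 8568.9 (95% exact counting interval 1537.5 to 338494.3). TF had 2645 counts in MP41 and 6 in Mel92.1 over the 3 libraries, a ratio of 468.9 (215.1 to 1278.9). ALB had 341 counts in MP41 and 6 in Mel92.1, a ratio of 60.5 (27.5 to 165.9), and TTR had 116 and 1, a ratio of 123.4 (21.7 to 4914.9). APOA2 had 142 counts in MP41 and none in Mel92.1, at least 50.3-fold higher against 3 counts over the group. APOA1 overlapped between the lines in single libraries, with 64 counts against 9, and its call was lost without Mel92.1 DMSO replicate 2 or 3 or MP41 DMSO replicate 2, with log2 differences of -4.04 to -1.68 when 1 library was left out. Intervals and floors cover counting error only. Per kilobase of the longest principal transcript, the order in MP41 was APOE (180.1 CPM per kb), SERPINA3 (22.4), APOC1 (17), APOA2 (2.2 ± 0.553, SD, n = 3) and AZGP1 (2.13 ± 0.205), which did not differ beyond their spread, then ALB (1.12), SERPINA1 (0.964), TTR (0.89) and APOA1 (0.395). TF was left out of this order because its annotated transcript of 20602 bases gives no usable length. TF overlaps SRPRB on the same strand, so reads of the overlap could be counted for either gene.

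**Figure D1:**
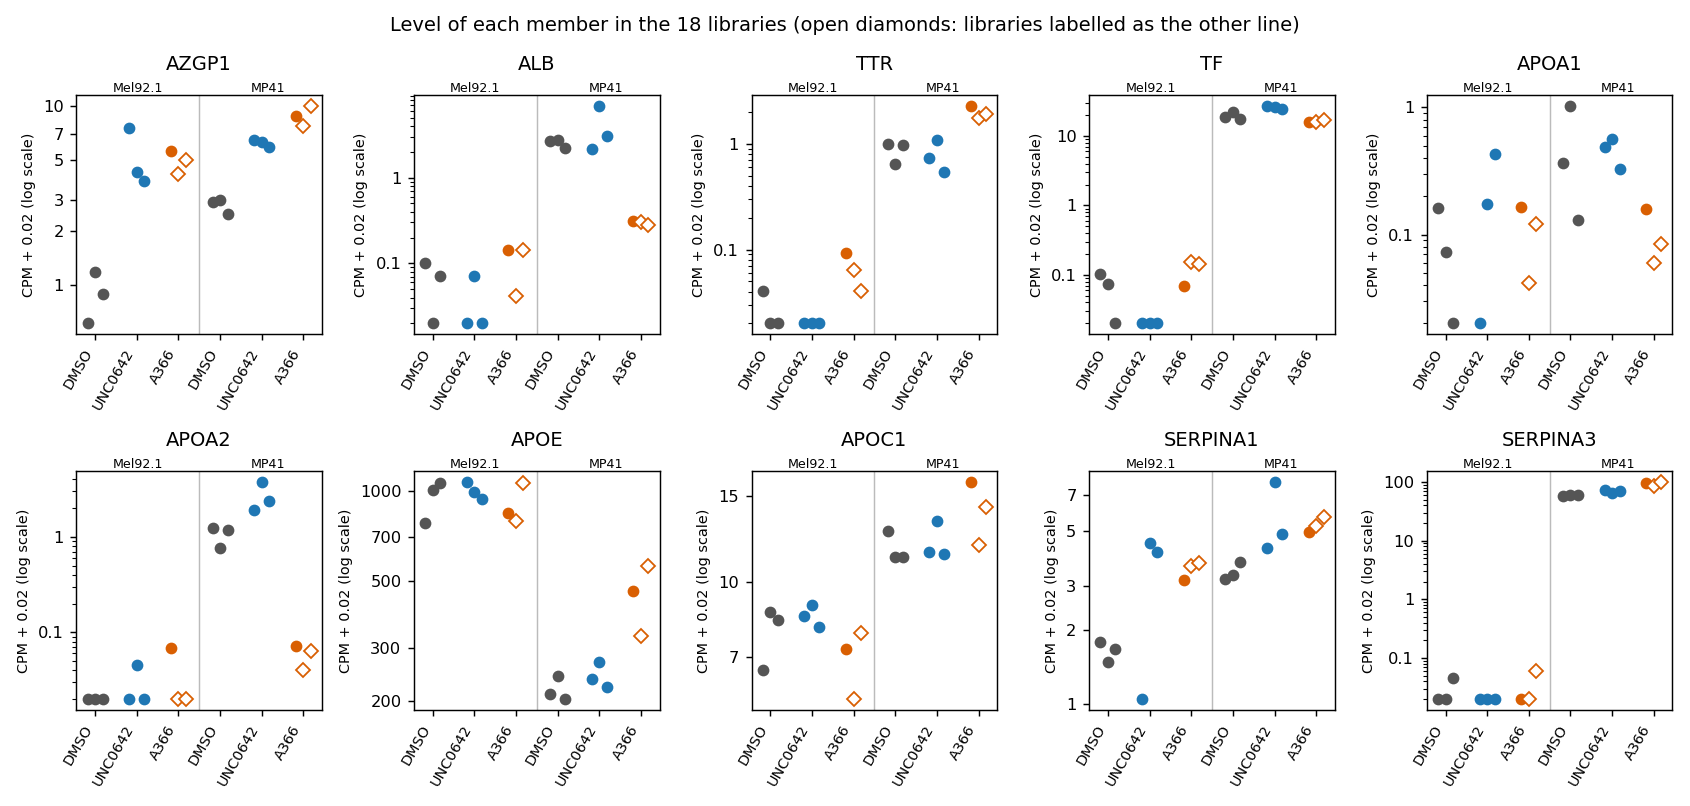
Each panel plots 1 member's level as CPM plus 0.02 on a log axis in the 18 libraries, by line and treatment, each point being 1 library and open diamonds the 4 libraries labelled as the other line. SERPINA3, TF, ALB and APOA2 separate the lines, AZGP1 is higher in every inhibitor library than in its line's DMSO libraries, and ALB and APOA2 are low in the 3 MP41 libraries with A366.

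AZGP1 was higher with either inhibitor in every library of both lines. In Mel92.1 the DMSO libraries held 0.594, 1.17 and 0.876 CPM (29, 44 and 34 counts). The UNC0642 libraries held 7.53, 4.25 and 3.82 CPM and the A366 libraries 5.62, 4.14 and 5.01 CPM. The 7.53 CPM belonged to UNC0642 replicate 1, the library with the lowest total and TMM factor. Neither inhibitor group overlapped with DMSO, and the log2 fold changes were 2.55 (SE 0.35) and 2.49 (SE 0.35). In MP41 the DMSO libraries held 2.9, 2.97 and 2.48 CPM (134, 128 and 114 counts), those with UNC0642 6.45, 6.26 and 5.89 CPM, and those with A366 8.77, 7.73 and 9.95 CPM. The log2 fold changes were 1.15 (SE 0.14) and 1.64 (SE 0.14), again with no overlap. As labelled, the A366 values became 3.15 (SE 0.44) in Mel92.1 and 1.1 (SE 0.27) in MP41, and without the 4 exchanged libraries 2.67 (SE 0.5) and 1.61 (SE 0.19). The as-labelled A366 groups hold libraries with the genes of the other line. With DMSO, AZGP1 was at 0.88 CPM in Mel92.1 and 2.78 CPM in MP41, so the as-labelled values also contain the lines' difference. AZGP1 stayed above 0 both as labelled and without the 4, which is a description because it had been chosen on such values. Its call with A366 in Mel92.1 was lost under both of these, and its calls with UNC0642 were lost as labelled in both lines and, in Mel92.1, without the 4 libraries. With a replicate block both of its Mel92.1 calls were lost. The pseudogene AZGP1P1, to which shared reads could be assigned, had 0 to 6 counts per library.

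Few members passed the threshold in the first 3 comparisons. With UNC0642 in Mel92.1, AZGP1 was the 1 member called of 4 that passed the count filter, where 0.688% of 14528 genes were called, and the 1 member whose libraries did not overlap with DMSO, where 15.5% of genes did not. With A366 in Mel92.1 it was again 1 of 4, where 0.213% of genes were called, and 2 of 4 did not overlap, where 15.8% of genes did not. With UNC0642 in MP41, AZGP1 was the 1 called of 10, where 0.241% of 14956 genes were called, and 5 of 10 did not overlap, where 18.8% did not. With A366 in MP41, 9 of 10 were called, 5 higher and 4 lower, but 46% of genes were called there and 58% did not overlap, against 8 of 10 members. APOA2 and APOA1 had 1 to 3 and 2 to 8 counts in the A366 libraries of MP41. They passed the count filter only through DMSO or UNC0642 libraries, so their direction was fixed by the filter and these counts are not strictly comparable with all genes. All 4 comparisons share the DMSO libraries of their line, and nothing is read from these counts because the members were selected on the same contrasts. AZGP1's call with A366 in Mel92.1 was lost when any 1 of 7 libraries was left out and was kept only without UNC0642 replicate 1 or 3, the log2 fold change running from 2.26 to 2.75. Its calls with UNC0642 were lost without Mel92.1 DMSO replicate 3 (2.55) and without MP41 DMSO replicate 3 (1.07).

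**Figure D2:**
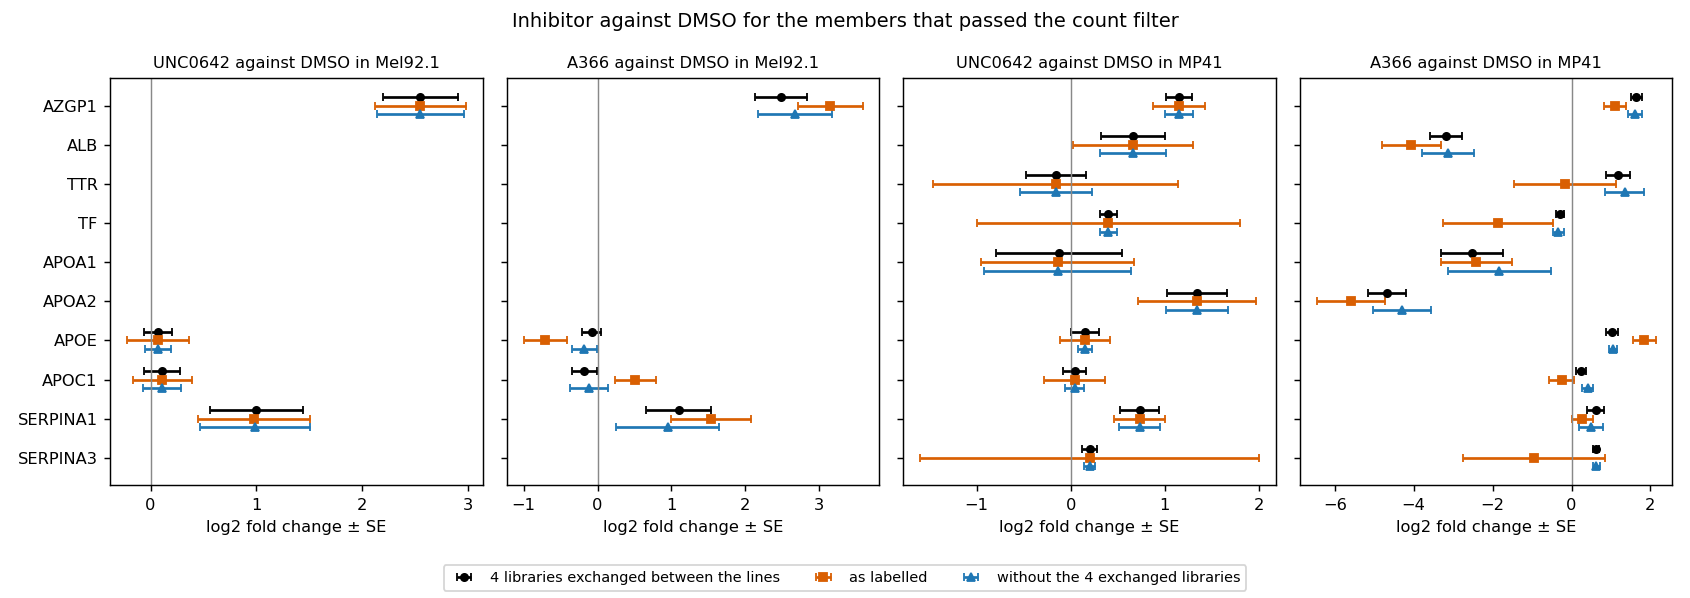
Each panel plots log2 fold changes against DMSO with standard errors for the members that passed the count filter, with the 4 libraries exchanged (black circles), as labelled (orange squares) and without the 4 (blue triangles). AZGP1 stands to the right of 0 in each panel, whereas the as-labelled error bars of SERPINA3, TF and TTR in MP41 are wide.

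The protease inhibitors behaved less uniformly. SERPINA1 in the Mel92.1 DMSO libraries was at 1.76, 1.46 and 1.65 CPM. UNC0642 libraries held 1.03, 4.45 and 4.11 CPM of it, and A366 libraries 3.16, 3.6 and 3.69 CPM. The low UNC0642 value belonged to replicate 1, the library with the lowest total, where 17 counts were found. The log2 fold changes were 1 (SE 0.44) and 1.1 (SE 0.44), and without that library the UNC0642 value was 1.39 (SE 0.16). In MP41 SERPINA1 held 3.18, 3.3 and 3.74 CPM with DMSO, 4.27, 7.88 and 4.87 CPM with UNC0642 and 4.95, 5.23 and 5.71 CPM with A366. All 6 inhibitor libraries stood above DMSO, and the highest, UNC0642 replicate 2, was also the library with the most ALB and APOA2. The log2 fold changes were 0.73 (SE 0.21), or 0.42 (SE 0.15) without that replicate, and 0.61 (SE 0.21). The SERPINA1 call with A366 was lost without MP41 DMSO replicate 1 or 2 or A366 replicate 1 or 3, at 0.55 to 0.68 over the libraries left out. SERPINA3, at 57.9, 60.3 and 60.5 CPM with DMSO in MP41, held 72.2, 63.4 and 70.2 CPM with UNC0642 and 94.6, 83.8 and 99.4 CPM with A366, log2 fold changes of 0.2 (SE 0.077) and 0.61 (SE 0.077). In Mel92.1 it had 0 to 2 counts in each of the 9 libraries, so no response could be seen there.

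The carriers moved apart from one another in MP41. The DMSO libraries held 2.62, 2.76 and 2.19 CPM of ALB, those with UNC0642 2.16, 6.76 and 3.06 CPM, and those with A366 0.294, 0.282 and 0.258 CPM. The A366 libraries lay together below all others, at 43 counts against 341 with DMSO, a ratio of counts per total of 0.104 (95% exact counting interval 0.0741 to 0.143), and the log2 fold change was -3.19 (SE 0.41). A366 replicate 1, whose label was not exchanged, stood at the same level as the other two. With UNC0642 the log2 fold change of ALB was 0.66 (SE 0.34), and 0.05 (SE 0.24) without replicate 2. TTR, at 0.973, 0.627 and 0.956 CPM with DMSO, held 0.711, 1.06 and 0.523 CPM with UNC0642 and 2.25, 1.73 and 1.92 CPM with A366. The A366 libraries lay above all others, with a log2 fold change of 1.18 (SE 0.31) against -0.16 (SE 0.32) for UNC0642. TF held 18.7, 22.4 and 17.7 CPM with DMSO, 26.7, 26.2 and 24.8 CPM with UNC0642 and 16.1, 15.8 and 17.1 CPM with A366, so that the 2 inhibitors lay on opposite sides of DMSO, with log2 fold changes of 0.4 (SE 0.094) and -0.29 (SE 0.095). The TF value with A366 lost its call without MP41 DMSO replicate 2 or A366 replicate 1, at -0.36 to -0.18 over the libraries left out. As labelled, 2 of the 3 A366 libraries of MP41 would hold 6 TF counts each, and the log2 fold change of TF would be -1.87 (SE 1.4).

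The apolipoproteins also moved apart. APOA2 in MP41 had 57, 32 and 53 counts with DMSO. It had 84, 179 and 99 counts under UNC0642, and 3, 1 and 2 under A366. The ratio of counts per total was 0.0349 (95% exact counting interval 0.0126 to 0.0779) for A366 against DMSO and 2.55 (2.1 to 3.12) for UNC0642 against DMSO, and the 3 groups did not overlap. APOA1 was scattered with DMSO, at 0.346, 0.999 and 0.109 CPM, lay at 0.467, 0.541 and 0.309 CPM with UNC0642, and at 0.138, 0.0402 and 0.0646 CPM with A366, a log2 fold change of -2.52 (SE 0.78) with overlapping libraries. That call was lost without MP41 DMSO replicate 2 or A366 replicate 2 or 3, the values running from -3.16 to -1.45. APOE moved the other way, from 209.6, 240.8 and 202.2 CPM with DMSO to 236.5, 269.5 and 221.5 CPM with UNC0642 and 462.8, 329.2 and 560.9 CPM with A366, log2 fold changes of 0.15 (SE 0.15) and 1.03 (SE 0.15). In Mel92.1, where APOE is high, it stayed between 790.2 and 1067.8 CPM with the inhibitors, with log2 fold changes of 0.07 (SE 0.13) and -0.08 (SE 0.13). APOC1, the gene after APOE on chromosome 19, differed by 0.24 (SE 0.12) with A366 in MP41, not past the threshold, and by 0.34 (SE 0.11) without A366 replicate 2, which passed it. It differed by at most 0.18 in size in the other 3 comparisons.

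UNC0642 and A366 were used at the same dose and time, so the 2 compounds could be set side by side over the 4 members tested in Mel92.1 and the 10 in MP41. These are the libraries that selected AZGP1, SERPINA1, ALB and APOA2, so the differences are a description. In Mel92.1 none of the 4 was called by edgeR, DESeq2 or limma and none had an unadjusted p under 0.05, where 0.165% of genes were called. AZGP1 differed by -0.06 between A366 and UNC0642 (approximate 95% interval -0.69 to 0.57 on the log2 scale), and SERPINA1 by 0.1 (-0.74 to 0.94). In MP41, 8 of 10 passed the threshold, where 43.1% of genes did. APOA1 and APOA2 were among them, although they met the count filter only through DMSO or UNC0642 libraries. AZGP1 was 0.49 higher with A366 (0.24 to 0.74), past the threshold with all libraries but not without A366 replicate 3. APOE was 0.87 higher (0.58 to 1.16) and TTR 1.33 higher (0.72 to 1.94). TF was lower by -0.68 (-0.86 to -0.5), APOA2 by -6.02 and ALB by -3.85. SERPINA1 differed by -0.12 (-0.51 to 0.27) and APOC1 by 0.2 (-0.04 to 0.44), neither past the threshold.

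The difference of the response between the lines was taken from the fit of all 18 libraries. It contains the inhibitor values that selected members, so it too is a description. For UNC0642 none of the 10 members passed by edgeR, where 0.601% of genes did, with 2 at an unadjusted p under 0.05, 1 called by DESeq2 and 0 by limma. AZGP1 differed by 1.39 (SE 0.36). For A366, 3 of 10 passed, where 13.8% of genes did. APOE differed by -1.13 (SE 0.23), being higher with A366 in MP41 and not in Mel92.1, and AZGP1 differed by 0.83 (SE 0.36), not past the threshold. ALB and APOA2, both at or near 0 counts in Mel92.1, were the others that passed.

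The wider list of 87 other liver-secreted plasma proteins gave no called gene in the 3 comparisons in which few genes of any kind were called (0.688%, 0.213% and 0.241%), so that these zeros do not set the list apart. In Mel92.1 25 of the 87 passed the count filter and none was called with either inhibitor by edgeR. At an unadjusted p under 0.05 there were 5 with UNC0642 and 4 with A366, where 1442 and 628 of all 14528 genes were. DESeq2 called 1 and 0 and limma none. The libraries did not overlap with DMSO for 7 and 11 of the 25, where 15.5% and 15.8% of all genes did not. In MP41 38 were tested and 0 were called with UNC0642 by edgeR, DESeq2 or limma. At an unadjusted p under 0.05 stood 5 of them, where 1316 of all 14956 genes did, and 7 did not overlap, where 18.8% of genes did not. Their median log2 fold changes were -0.01 and 0.3 in Mel92.1 for UNC0642 and A366, and 0.26 with UNC0642 in MP41, where the medians over all genes tested were -0.02, -0.01 and 0. The 2 most abundant genes of the list show the scale. A2M, a broad protease trap, stood at 389.4 ± 28.9 CPM with DMSO in Mel92.1, 359.7 ± 10 with UNC0642 and 431.9 ± 31.9 with A366 (SD, n = 3 each), and SERPINF1, pigment epithelium-derived factor, at 387 ± 32, 444.2 ± 17.3 and 336.8 ± 22.9 CPM. In MP41 with UNC0642, A2M held 802.4 ± 53.8 CPM against 849.2 ± 47.8 with DMSO, and the anticoagulant cofactor PROS1 429 ± 19.9 against 440.2 ± 4.79.

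With A366 in MP41, 17 of the 38 tested were called, 10 higher and 7 lower, which is 44.7% beside 46% of all genes, and their median log2 fold change was 0.12, beside 0.02 over all genes tested. The higher genes included SERPINF1, SERPING1, SERPINA5, CFI, C1S, ITIH3, A1BG, VTN and HPX. SERPINA5, the protein C inhibitor, rose from 9.11 ± 1.95 to 18.2 ± 0.831 CPM (log2 fold change 0.98, SE 0.15) and SERPING1, the C1 inhibitor, from 11.6 ± 1.33 to 17 ± 0.97 CPM (0.52, SE 0.1), whereas PROS1 fell from 440.2 ± 4.79 to 343.2 ± 24.9 CPM (-0.38, SE 0.065). The other 6 lower genes were named after their values were seen, because all are hepatocyte products below 3 CPM in every MP41 library. They are AHSG (fetuin A), AMBP (alpha-1-microglobulin and bikunin), APOB (the protein of low-density lipoprotein), AFP (alpha-fetoprotein), RBP4 (the retinol carrier) and C3. AMBP, APOB, AFP and RBP4 had 0 to 2 counts in each A366 library, AHSG 9 to 16 and C3 7 to 17. The A366 libraries alone would not have passed these 6 genes, which met the count filter through DMSO or UNC0642 libraries. Their direction was thus fixed by the filter, or for AHSG and C3 favored by it. The 7 lower genes and the 44.7% are therefore not strictly comparable with all genes. Among the higher genes, HPX, at a mean of 0.241 CPM in MP41, also rests on few counts. AHSG held 0.843, 2.18 and 0.76 CPM in the DMSO libraries, 1.31, 2.91 and 0.832 CPM in those with UNC0642 and 0.277, 0.181 and 0.215 CPM in those with A366. APOB had 49 counts with DMSO, 91 with UNC0642 and 2 with A366, and AFP had 35, 40 and 1. AMBP had 40, 93 and 4, and APOH, which was below the filter, 26, 32 and 0. RBP4 had 16 counts with DMSO and none with A366, at least 6.45-fold lower against 3 counts over the group. C3 had 8 counts over the 3 Mel92.1 DMSO libraries and each of the others 0 to 2. ALB, APOA2, AHSG, AMBP, APOB, RBP4, C3 and SERPINA1 each had their highest level of the 9 MP41 libraries in UNC0642 replicate 2, whereas APOA1 (0.999 CPM) and APOH (0.534 CPM) peaked in DMSO replicate 2 and AFP (0.689 CPM) in UNC0642 replicate 3. Whether these genes share a source in the MP41 libraries was not tested, and in bulk libraries fewer expressing cells and less RNA per cell cannot be told apart.

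**Figure D3:**
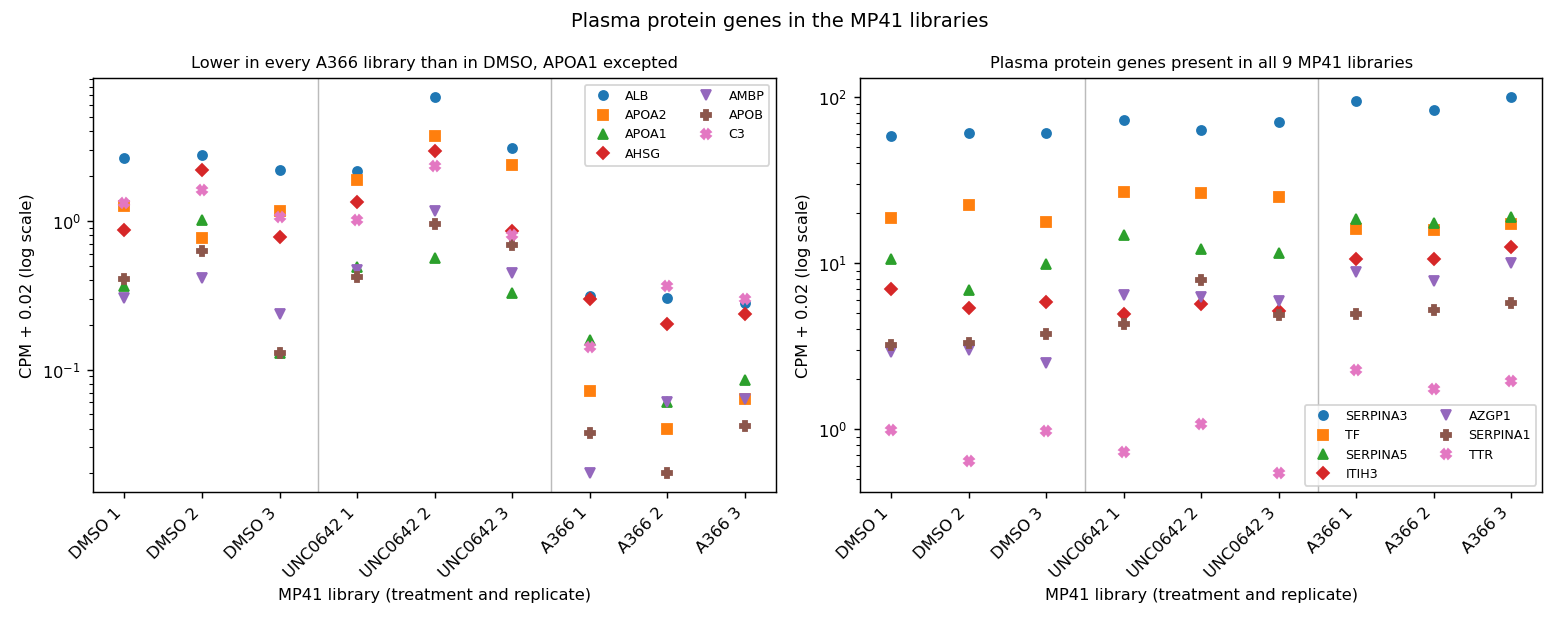
Levels as CPM plus 0.02 on a log axis are plotted for the 9 MP41 libraries, each point being 1 library. ALB, APOA2, APOA1, AHSG, AMBP, APOB and C3 on the left lie below 0.4 CPM in the 3 A366 libraries and, APOA1 excepted, peak in UNC0642 replicate 2, while SERPINA3, TF, SERPINA5, ITIH3, AZGP1, SERPINA1 and TTR on the right are present in all 9.

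**Figure D4:**
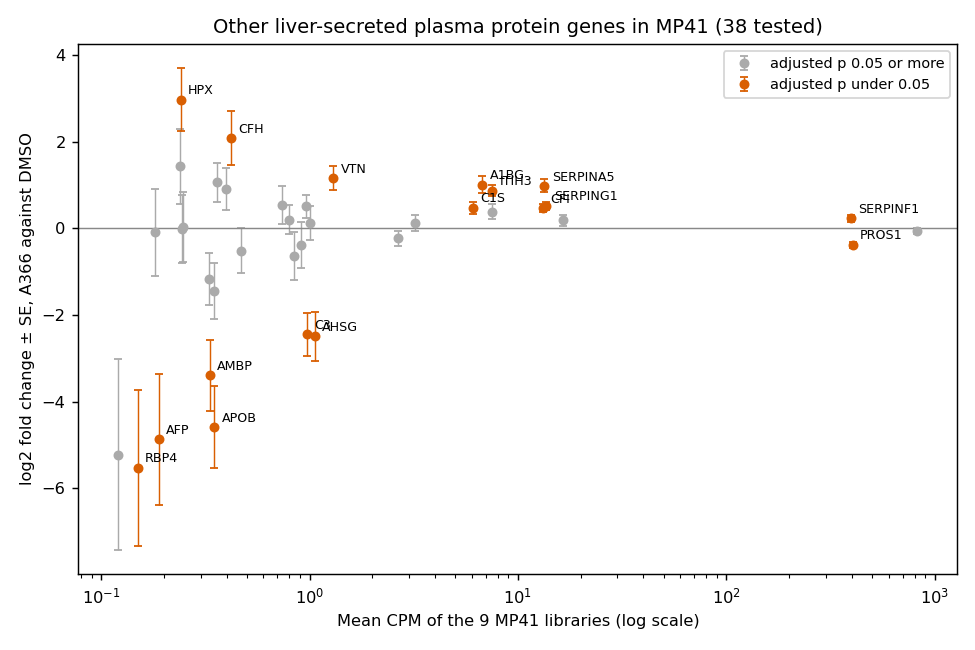
The log2 fold change with standard error for A366 against DMSO in MP41 is plotted against the mean CPM on a log axis for the 38 liver-secreted genes tested, orange points having an adjusted p under 0.05. The 10 higher genes run from HPX at 0.241 CPM to SERPINF1 at 396.4 CPM, and the called values below -2 belong to genes at 1.06 CPM (AHSG) or less.

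Genes of the hepatocyte interior were mostly not detected. Of 44 genes of hepatocyte metabolism, 4 passed the filter in Mel92.1 and 9 in MP41. In each of the 4 inhibitor comparisons edgeR called 0, with 1 at an unadjusted p under 0.05 for UNC0642 in MP41 and 0 in the others. In the first 3 comparisons few genes of any kind were called (0.688%, 0.213% and 0.241%), so those zeros do not set the list apart. With A366 in MP41, 0 of 9 stood beside 46% of all genes called and 8016 of 14956 at an unadjusted p under 0.05. Between the inhibitors in MP41, 3 of 9 were called (TTPA, UGT2B7 and HPD), beside 43.1% of all genes. The most abundant were CPS1, the first enzyme of the urea cycle, at 20.7 ± 0.925 CPM with DMSO and 21.2 ± 2.3 with A366 in MP41, and TTPA, the vitamin E transfer protein, at 3.55 ± 0.633 and 2.87 ± 0.568. The summed level of the list was 31.5 to 33.2 CPM with DMSO, 31.1 to 36.8 with UNC0642 and 31.3 to 34.9 with A366 in MP41, and 20, 21 and 17 of its 44 genes were at 0 counts in these groups. Of 19 liver-enriched transcription factors, none was called by edgeR in the first 3 comparisons, beside the same low shares of all genes. At an unadjusted p under 0.05 were 2, 1 and 1, where 1442 and 628 of 14528 genes and 1316 of 14956 were. With A366 in MP41 CEBPB rose from 33.4 ± 1.72 to 65.8 ± 13 CPM (log2 fold change 0.95, SE 0.14), and ONECUT2 (-0.59, SE 0.13), PROX1 (-0.86, SE 0.26) and ONECUT1 (-0.84, SE 0.27) fell, so 4 of 11 tested were called, which is 36.4% beside 46% of all genes. HNF4A, looked up after the values were seen, had 0 counts in the MP41 DMSO libraries and up to 1 with A366. With UNC0642 it had 10 counts in replicate 2 and 0 in replicates 1 and 3.

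The pigment cell origin on the label was checked against its markers. All 10 melanocyte lineage markers were detected in MP41 and 9 in each group of Mel92.1 stood at 1 CPM or more, with summed levels of 21206.8 to 24632.3 CPM in Mel92.1 and 15709.4 to 16870.9 CPM in MP41. DCT rose with UNC0642 in MP41 (log2 fold change 0.62, SE 0.099), TYR (0.49, SE 0.057) and MLANA (0.34, SE 0.062) rose with UNC0642 in Mel92.1, and with A366 in MP41 7 of 10 were called, 3 higher and 4 lower, where 46% of all genes were, among them PMEL (0.42, SE 0.059) and TYRP1 (-0.27, SE 0.043). Of 8 retinal pigment epithelium markers, BEST1 (0.77, SE 0.12) and RLBP1 (0.83, SE 0.16) rose with A366 in MP41, 2 of 4 tested beside the same 46%. Of 11 leukocyte and blood markers, CD68 was the 1 gene at 1 CPM or more, and the summed level was 152.7 to 174.2 CPM with DMSO and 166.9 to 178.4 CPM with A366 in MP41. With A366 there, none of the 2 tested was called by edgeR, beside the same 46% of all genes, and none had an unadjusted p under 0.05. The inhibited enzymes were expressed throughout. EHMT2 stood at 98.5 ± 3.01 CPM with DMSO in MP41 and 117.2 ± 1.28 with A366 (log2 fold change 0.23, SE 0.061), and at 107.2 ± 1.61 and 106.1 ± 3.47 in Mel92.1. EHMT1 stood at 86.6 ± 6.57 CPM with DMSO in Mel92.1 and 39.9 ± 1.11 in MP41.

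Genes that act with the members, or lie beside them, were read from lists chosen by function and position. For acute phase and IL6 signaling, 8 of 16 tested were called with A366 in MP41, 4 in each direction. IL6ST (-0.69, SE 0.13), JAK1 (-0.39, SE 0.083) and IL6R (-0.18, SE 0.064) were among the lower genes. CEBPB (0.95, SE 0.14), ITIH3 (0.87, SE 0.13) and HPX (2.97, SE 0.73, at a mean of 0.241 CPM in MP41) were among the higher genes. The member SERPINA3, which is not counted in this list, was also higher. For iron handling, 7 of 11 were called. The transferrin receptor TFRC fell from 438.1 ± 10.1 to 227.7 ± 38.2 CPM (-0.97, SE 0.098), while the ferritin chains FTH1 (0.33, SE 0.061) and FTL (0.39, SE 0.083) rose and the iron transporter SLC11A2 fell (-0.36, SE 0.076). For lipoprotein uptake and efflux, 9 of 17 were called, 3 higher and 6 lower, with the receptors VLDLR (-0.39, SE 0.08) and LRP1 (-0.27, SE 0.1) lower and the phospholipid transfer protein PLTP (0.23, SE 0.076) higher. Among 24 tested neighbors of AZGP1 at 7q22, 12 were called with A366 in MP41, 8 higher and 4 lower, and edgeR called 0 in the other 3 comparisons, with 1 to 3 at an unadjusted p under 0.05. LAMTOR4 (0.68, SE 0.13) and STAG3 (-0.59, SE 0.072) were on opposite sides. The neighbors at the serpin cluster gave 1 of 2 (SERPINA5), those of APOE 2 of 3 (CLPTM1 and PVRL2) and those of APOA1 2 of 7 (PAFAH1B2 and SIK3) with A366 in MP41. In the other comparisons with DMSO, edgeR called 0 at these 3 places, with 0 to 2 at an unadjusted p under 0.05. No gene of the serpin cluster list passed the count filter in Mel92.1, so no call was possible there. All the shares for A366 in MP41 are to be read beside the 46% of genes called in that comparison. The zeros of the other 3 comparisons stand beside 0.688%, 0.213% and 0.241% of genes called.

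Among 11927 genes at 1 CPM or more in each line, those whose levels relative to DMSO followed AZGP1 most closely over the 18 libraries were SPARC (Pearson r = 0.94), NOX5 (0.93), CFI (0.93), BATF2 (0.93) and SEPP1 (0.91). CFI, complement factor I, and SEPP1, the plasma selenium carrier, are themselves secreted by liver. CFI had log2 fold changes of 1.37 (SE 0.3) with UNC0642 and 1.05 (SE 0.3) with A366 in Mel92.1, and 0.29 (SE 0.1) and 0.47 (SE 0.1) in MP41, of which the last was called. For ALB the closest included ISL1 (0.86), NEK2 (0.85), DPYSL4 (0.83) and ARL6IP1 (0.82). These libraries share their treatments, so the correlations are a description of the group pattern.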

How the data were processed

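RNA was sequenced from 18 libraries (6 groups of 3). The deposited values are expected counts per gene, which the authors estimated with RSEM 1.2.15 after Bowtie2 2.1.0 alignment to hg38, per the submitters' processing notes. The paper's methods name other tools, a mouse genome build and another instrument, and the labels give both ribosomal depletion and oligo-dT selection, so the pipeline is not certain. All columns were mapped to samples. Members and lists were chosen with earlier results of these data known. Counts were rounded, filtered with filterByExpr, scaled with TMM and fitted with edgeR 4.0.16 in R 4.3.3, by the quasi-likelihood test. A gene was called at a Benjamini-Hochberg adjusted p under 0.05. Each line's 9 libraries were fitted together for inhibitor comparisons. All 18 were fitted for the line difference and for line differences in response. The 4 libraries named in the report were exchanged between the lines, as described. CPM come from the 18-library TMM factors. Approximate intervals are 1.96 standard errors each side, and counting intervals are exact conditional binomial intervals. Alternatives were the labels as given, the 4 libraries left out, RLE scaling, DESeq2 1.42.0, limma 3.58.1 on log2(CPM + 1), no filter, a mean of 1 CPM, a replicate block, the 6 libraries compared, and each library left out. On simulated data with 200 changed genes (log2 change 1.5), 151 were recovered with 8 false calls for A366 in Mel92.1, and 177 with 7 false calls in MP41. The genes named were the 10 members and, from each list and inhibitor comparison, up to 4 called genes of highest mean CPM, or the 2 highest where none was called, of which the text gives a part (some genes are not reported here), together with EHMT2, EHMT1 and the 5 genes most like AZGP1 and ALB. Positions are from GENCODE v29, and upstream sequences from RefSeq, found for 8 of 10 members.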

Additional observations from a re-analysis of the deposited data

Results flagged for a closer look

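In the line-by-treatment term of the fit of all 18 libraries (edgeR, adjusted over 15799 genes), 3 members passed the threshold for a different response to A366. The response of Mel92.1 less the response of MP41, on the log2 scale, was -1.13 for APOE (SE 0.23), 4.03 for ALB (SE 1) and 7.3 for APOA2 (SE 2). ALB and APOA2 were selected on their values with A366 in MP41, which this term contains, so no p-value is given and these values are a description. The Mel92.1 side of ALB and APOA2 rests on 6 ALB and 0 APOA2 counts over the 3 DMSO libraries and 12 and 2 with A366, so the fitted sizes depend on the prior count. ALB lost its call without Mel92.1 DMSO replicate 2 or 3, Mel92.1 A366 replicate 1 or MP41 A366 replicate 3 (values of 3.54 to 4.82), and APOA2 without any 1 of 7 libraries (4.65 to 7.85). APOE kept its call with each library left out (-1.31 to -0.94).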

How the results depend on the processing

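Of 1023 alternative values of single members, 936 kept their direction and side of the threshold, 57 lost it, 10 gained it and 20 changed sign. The placement of the 4 libraries mattered most. As labelled, the members called fell to 0 (UNC0642, Mel92.1), 0 (A366, Mel92.1), 0 (UNC0642, MP41), 4 (A366, MP41) and 3 (A366 against UNC0642, MP41), and rose to 7 for the line difference in response to A366. As labelled, the sign changed for APOC1 with A366 in Mel92.1 (0.51) and MP41 (-0.25), for TTR (-0.16) and SERPINA3 (-0.95) with A366 in MP41, and between A366 and UNC0642 for AZGP1 in Mel92.1 (0.6), AZGP1 (-0.05), TTR (0) and SERPINA3 (-1.15) in MP41. Without the 4 libraries, members called were 0 with either inhibitor in Mel92.1 and 1 for the line difference with A366, the wider liver list in MP41 with A366 gave 10, and AZGP1 between inhibitors in Mel92.1 was 0.12. DESeq2 called 3 members with UNC0642 in MP41, 1 for each line difference and 1 gene of the liver list with UNC0642 in Mel92.1, limma called 5 for the line difference with A366, and a filter at a mean of 1 CPM left 11 of the liver list called with A366 in MP41. With only the 6 libraries compared, members called in Mel92.1 were 0 (UNC0642) and 2 (A366), and the liver list gave 1 (A366). Same-numbered replicates did not deviate together (1 of 18 pairs above r = 0.1, range -0.21 to 0.24). With a replicate block, members called in Mel92.1 fell to 0 with either inhibitor, and APOA1 with UNC0642 in MP41 became 0.09. With each library left out, members called ran from 0 to 2 with either inhibitor in Mel92.1, 0 to 1 with UNC0642 in MP41 and 1 to 4 for the line difference with A366, and the liver list from 0 to 1 with either inhibitor in Mel92.1. Small log2 fold changes that changed sign there were APOE (-0.05 to 0.16) and APOC1 (0 to 0.18) with UNC0642 and APOE (-0.22 to 0.01) with A366 in Mel92.1, AZGP1 between inhibitors in Mel92.1 (-0.24 to 0.29), and APOA1 (-0.61 to 0.94), APOC1 (-0.03 to 0.1) and TTR (-0.46 to 0.05) with UNC0642 in MP41. The cause of these changes was not tested.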
